A study of Mus musculus with 6 samples.

Results

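The 10 genes described here encode proteins that act on AU-rich elements and other 3' UTR sequences to control mRNA decay. They were chosen by name, from 24499 rows of the gene count table. 9 names matched a row by symbol, and the tenth, given as Hnrnpd-like, was matched to *Hnrnpdl*, the gene of heterogeneous nuclear ribonucleoprotein D-like. The genes were compared in *in vitro* germinal center B cells (iGCBs) from 3 cKO and 3 control mice, 1 mouse per library. cKO mice were *Eif3e* fl/fl Cγ1Cre Rosa26-YFP LSL on the C57BL/6J background and lack eIF3e, a subunit of translation initiation factor eIF3, once Cre acts. The labels call the other mice control, with cgWT in their library names, and elsewhere in the study Cγ1Cre Rosa26-YFP LSL mice, with no floxed *Eif3e* named, served as controls, but the alleles of these 3 mice are not spelled out, nor are ages. Naïve spleen B cells from both groups were cultured for 3 days with IL-4 at 1 ng/ml on irradiated (120 Gy) 40LB feeder cells, which are BALB/c 3T3 fibroblasts made to express CD40L together with BAFF. YFP+ cells were then sorted in both groups, so cells of both had activated the Cre reporter. Cγ1Cre is driven from the immunoglobulin γ1 constant region locus, which B cells transcribe after activation, so deletion is tied to the activated state. Poly(A) RNA was sequenced.

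AU-rich elements are stretches of A and U in the 3' UTR of many short-lived mRNAs, among them those of cytokines and immediate early genes. ZFP36 family proteins bind the heptamer UAUUUAU and recruit the CCR4-NOT complex, which shortens the poly(A) tail and so starts decay. Roquin proteins and Regnase-1 act on stem-loops in 3' UTRs, while HuR competes for AU- and U-rich sites and mostly stabilizes the mRNA. In B cells, *Zfp36l1* and *Zfp36l2* are known for holding developing cells in quiescence, and HuR for its need in germinal center responses.

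Several of these regulators carry the heptamer in their own 3' UTR. The 3' UTR of each member was taken from the GENCODE M21 transcript (GRCm38, the same assembly as mm10) matched to its RefSeq transcript with the highest mean count, and searched on the transcript strand for the pentamer ATTTA and for the heptamer TATTTAT, which contains it, with overlapping matches counted. TATTTAT occurred in 6 of the 10 members, against 27.5% of the 12188 tested genes with a matched 3' UTR. It occurred 3 times each in *Zfp36* (3' UTR of 774 bases), *Zfp36l1* (1835 bases), *Zfp36l2* (1822 bases) and *Rc3h2* (2095 bases), 2 times in *Rc3h1* (7181 bases) and 8 times in *Elavl1* (4218 bases). 3 or more matches were found in 3.35% of the 12188 genes, and the median 3' UTR of those genes was 966.5 bases long. These shares were not matched for length. Every member with a copy except *Zfp36* had over 1500 bases, as did *Khsrp* without one. Among tested genes with 3' UTRs of at least 1500 bases, 2105 had a copy and 2147 had none. Among those of 500 to 1500 bases, 995 had a copy and 3173 had none. *Zc3h12a*, *Khsrp*, *Hnrnpdl* and *Cnot1* had no TATTTAT in the matched 3' UTR. These counts describe letters in the annotation and not binding. Of the 30-base windows that contain TATTTAT, the one with the most pentamers is shown for each gene of the ZFP36 family, which binds this element, and for *Elavl1*, which has the most copies among the members. ATTTA is in capitals, and the sequences are from the GENCODE transcripts, 5′ to 3′.
Zfp36, chr7:28376958-28376987, minus strand: cctttATTTAtgacgactttATTTAttgta
Zfp36l1, chr12:80108431-80108460, minus strand: cttATTTAacttatcaaaacgtATTTAttg
Zfp36l2, chr17:84184918-84184947, minus strand: gaaaaactATTTAacttATTTAttatcttg
Elavl1, chr8:4285777-4285806, minus strand: ttATTTATTTATTTATTTAtttttATTTAt
The *Elavl1* window held 5 copies of ATTTA and 5 of TATTTAT, whereas each of the 3 ZFP36 family windows held 2 copies of ATTTA.

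The libraries held 39079582 to 45504570 estimated counts, so that 3 counts, the floor used for detection, equal 0.0661 to 0.0763 CPM (counts scaled to a common library total) and lie far below every member. *Eif3e* itself was at 173.4, 149.8 and 151.7 CPM in the cKO libraries and at 424.3, 400.7 and 392.4 CPM in the control libraries, a change of −1.36 on the log2 scale (standard error, SE, 0.0657, and adjusted p = 6.71e-07 by the quasi-likelihood test of edgeR). All 6 B cell markers were expressed, with a summed level of 4460 to 4620 CPM in cKO and 4330 to 4690 CPM in control iGCBs. The 4 plasma cell markers summed to 157 to 176 CPM in cKO and 380 to 480 CPM in control iGCBs, although *Sdc1* went the other way, at 13 to 15 and 4.01 to 5.65 CPM. The 3 germinal center markers summed to 236 to 243 and 264 to 309 CPM, with *Fas* higher in cKO at 88.5 to 94.6 against 65.4 to 74.0 CPM. The 4 myeloid markers summed to 4.08 to 6.06 and 1.22 to 2.45 CPM, with *Adgre1* the largest part at 3.64 to 5.54 and 0.62 to 2.02 CPM, while *Lyz2*, *Itgam* and *Csf1r* stayed at or below 0.534 CPM in every library. The part that these shifts in marker levels have in the results was not tested. The 10 fibroblast markers, which could come from the feeder cells, overlapped between groups in their sum, at 99.6 to 125 and 77 to 142 CPM, although *Fn1* was higher in cKO at 35.7 to 46.8 against 13.6 to 22.4 CPM, with *Lum* and *Postn* at 0 in every library. The 4 T cell markers summed to at most 0.355 CPM, with *Cd3e* at 0 in every library. *Xist* was counted 53272 times in cKO replicate 2 and 58899 and 70912 times in control replicates 1 and 2, and at most 16 times in the other libraries, so both groups mix libraries with and without it.

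Among the 10 regulators, *Elavl1*, *Hnrnpdl*, *Cnot1* and *Zfp36l1* were higher and *Zfp36l2* was lower in cKO than in control iGCBs, while the other 5 did not pass the test. A call here is an edgeR p, adjusted over all 13296 genes tested, under 0.05, and fold changes are on the log2 scale of cKO over control. All 10 members were among the genes tested. Of all genes tested, 24.1% were called higher and 24.5% lower, so 5 of 10 members called is near the share called among all genes. With a fold change over 1.5 required as well, the study's cutoff, *Elavl1* and *Zfp36l2* remained, against 10.4% of all genes higher and 10.6% lower. No overlap between the 2 groups of libraries was seen for 6 members, the 5 called genes and *Rc3h1*, and for 58.7% of all genes tested. The median log2 fold change was 0.10 for the members and −0.004 for all genes, and the median size of the change was 0.23 for the members and 0.35 for all genes.

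**Figure D1:**
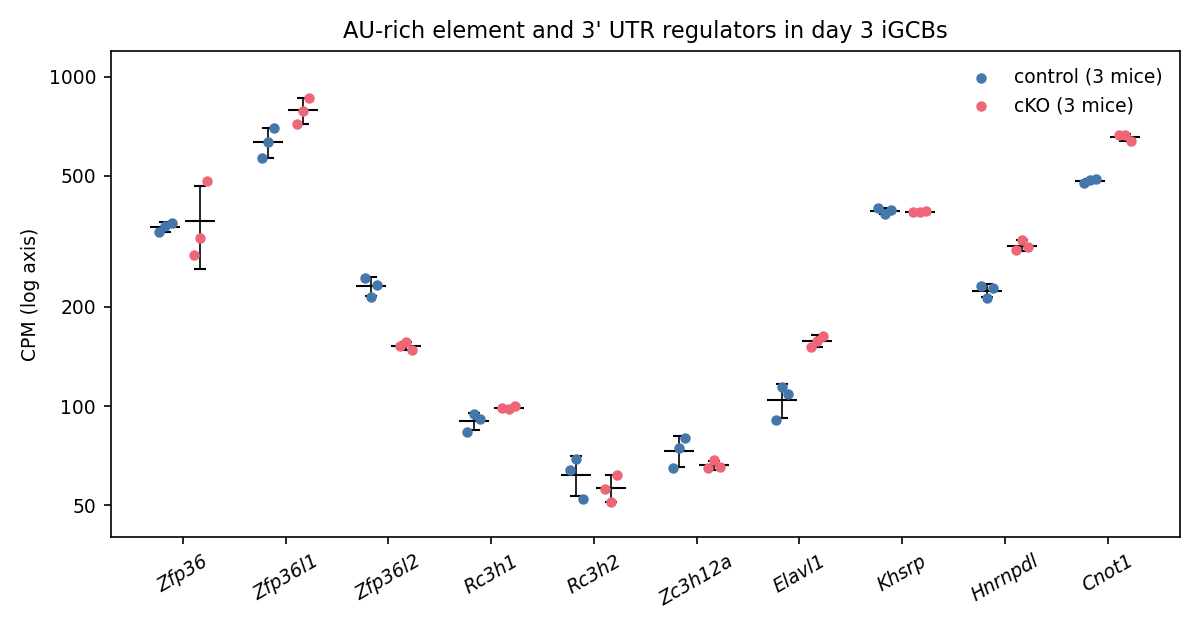
TMM-scaled CPM (log axis) of the 10 regulators in each library, 3 control and 3 cKO mice, with the mean and SD as bars. The groups separate for *Zfp36l1*, *Zfp36l2*, *Rc3h1*, *Elavl1*, *Hnrnpdl* and *Cnot1*, and cKO replicate 3 lies above the other libraries for *Zfp36*.

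The 3 members of the ZFP36 family differed in direction. *Zfp36* (tristetraprolin; chromosome 7, 28376784 to 28380253, minus strand) was at 287.7, 324.5 and 481.6 CPM in cKO replicates 1, 2 and 3 and at 336.7, 353.4 and 359.2 CPM in the control replicates. cKO replicate 3 was the highest library and the other 2 cKO libraries were the lowest, so the groups overlapped. The fitted log2 fold change was 0.06 (SE 0.152, adjusted p = 0.775, edgeR), with a 95% confidence interval of −0.28 to 0.40, and the SD was 103 CPM in cKO against 11.7 CPM in control iGCBs. Without cKO replicate 3 the value turned to −0.19 with an adjusted p of 0.0449 (edgeR), so the direction for *Zfp36* rests on 1 library.

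The same library also stood high for many transcripts known as targets of these proteins, in a count that was not among the planned comparisons. It stood high for the members too. Of the 10 members, 6 (60%) were highest in replicate 3 among cKO libraries and 4 (40%) among control libraries. Of the 35 tested genes of the target list, 19 (54.3%) had their highest cKO level in replicate 3, against 32.2% of all genes tested, although 18 of the 35 (51.4%) were also highest in replicate 3 of the control group, against 35.0% of all genes. *Fos*, an immediate early gene of this list, was at 323.2, 337.8 and 518.0 CPM in the cKO replicates and at 82.63, 95.05 and 114.9 CPM in the control replicates, so replicate 3 was the highest in both groups. What sets these levels in cKO replicate 3 was not tested.

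*Zfp36l1* (chromosome 12, 80107754 to 80113013, minus strand) was higher in every cKO library than in any control library. Its levels were 720.6, 787.5 and 863.9 CPM in cKO iGCBs and 567.1, 633.5 and 698.4 CPM in control iGCBs. The log2 fold change was 0.32 (SE 0.0828, adjusted p = 0.00893, edgeR), and it held in all 15 alternatives of the gene fit, with values from 0.25 to 0.40. An annotated RNA on the opposite strand, *Gm26669*, covers 55.9% of the matched *Zfp36l1* transcript and has no row of its own in the gene table. Whether the authors counted reads by strand is not given in the sources used here, so reads of the pair cannot be told apart.

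*Zfp36l2* (chromosome 17, 84183931 to 84187947, minus strand) moved the other way. It was at 152.7, 156.0 and 147.9 CPM in cKO iGCBs and at 244.6, 214.6 and 233.2 CPM in control iGCBs. The cKO libraries lay close together and all below the control libraries. The log2 fold change was −0.60 (SE 0.0579, adjusted p = 2.13e-05, edgeR), or 0.66-fold, and *Zfp36l2* was the only member of the 10 called lower.

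**Figure D2:**
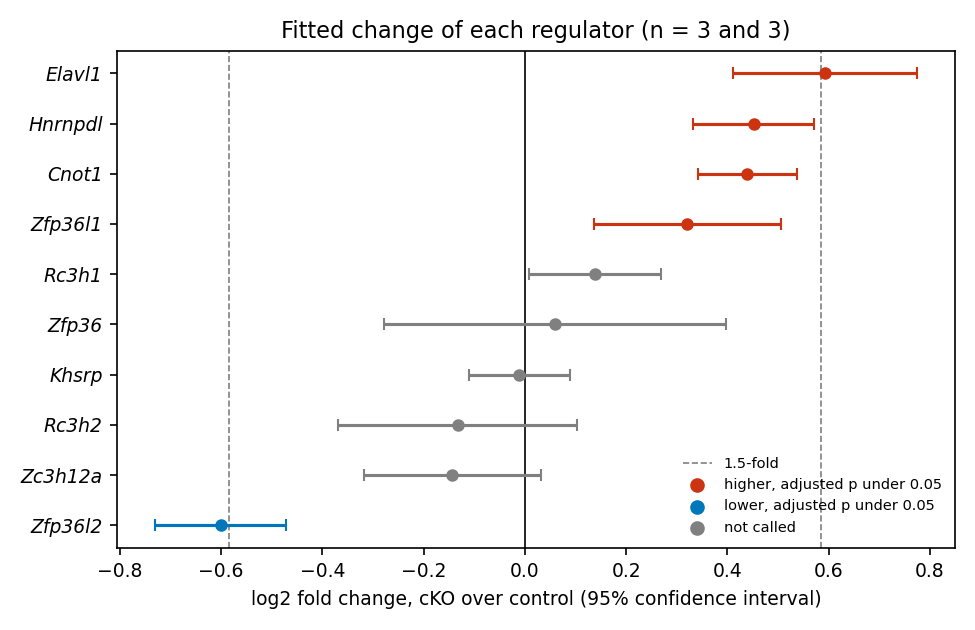
Fitted log2 fold change of cKO over control for each regulator with its 95% confidence interval (n = 3 and 3), and dashed lines at a 1.5-fold change. *Zfp36l2* at −0.60 and *Elavl1* at 0.59 lie just beyond the dashed lines, with intervals that cross them.

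Because each library gives a ratio of 2 relatives that does not depend on its scaling, the balance within families was compared directly. The log2 ratio of *Zfp36l1* to *Zfp36l2* counts was 2.24, 2.33 and 2.55 in cKO and 1.21, 1.56 and 1.58 in control libraries. The groups did not overlap, and the difference of 0.92 corresponds to a ratio 1.89 times as high in cKO iGCBs (exact permutation p = 0.1, two-sided, the smallest that 3 libraries against 3 can give). The log2 ratio of *Zfp36* to *Zfp36l2* averaged 1.22 ± 0.421 in cKO libraries and 0.60 ± 0.131 in control libraries (SD, n = 3 each), also without overlap (exact permutation p = 0.1). The ratio of *Zfp36* to *Zfp36l1* averaged −1.15 ± 0.266 and −0.85 ± 0.104 (SD, n = 3 each), with overlap (exact permutation p = 0.2). For the Roquin pair, *Rc3h1* to *Rc3h2* averaged 0.82 ± 0.124 and 0.55 ± 0.227 (SD, n = 3 each), with overlap (exact permutation p = 0.2). After adjustment over the 4 pairs each p was 0.2. Without cKO replicate 3 the difference in the *Zfp36* to *Zfp36l2* ratio was 0.38 in place of 0.62, and that in the *Zfp36* to *Zfp36l1* ratio was −0.45 in place of −0.30.

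**Figure D3:**
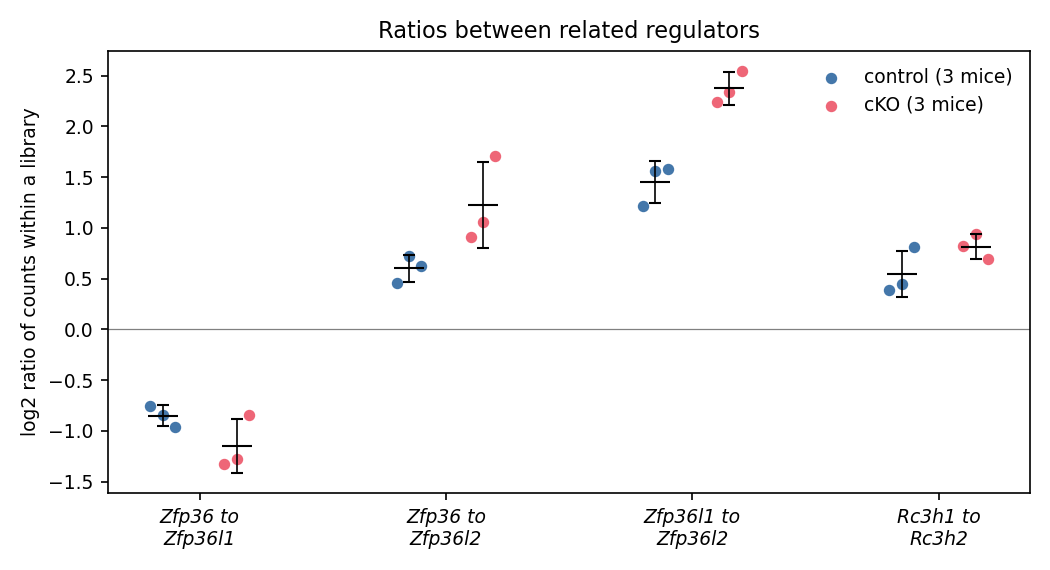
Log2 ratio of the counts of 2 related genes within each library, for 3 control and 3 cKO mice, with mean and SD as bars. The *Zfp36l1* to *Zfp36l2* ratio lies between 1.21 and 1.58 in control and between 2.24 and 2.55 in cKO libraries.

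Neither Roquin gene nor Regnase-1 passed the test. *Rc3h1* (Roquin-1; chromosome 1, 160906418 to 160974978, plus strand) was at 98.95, 98.11 and 99.72 CPM in cKO and at 83.67, 94.42 and 91.58 CPM in control iGCBs. Every cKO library was above every control library, but the log2 fold change of 0.14 (SE 0.0584, 95% confidence interval 0.01 to 0.27) had an adjusted p of 0.0744 (edgeR). *Rc3h2* (Roquin-2; chromosome 2, 37370069 to 37422903, minus strand) was at 56.09, 51.14 and 61.74 CPM in cKO and at 63.88, 69.02 and 52.26 CPM in control iGCBs. These ranges overlapped, with a log2 fold change of −0.13 (95% confidence interval −0.37 to 0.10, adjusted p = 0.335, edgeR). Without control replicate 3 the *Rc3h2* value was −0.236 (adjusted p = 0.0503, edgeR), and without control replicate 2 it was −0.0521. Neither made *Rc3h2* a call.

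*Zc3h12a* (chromosome 4, 125118423 to 125127840, minus strand) encodes the endonuclease Regnase-1. Its levels were 64.92, 68.59 and 65.11 CPM in cKO and 64.72, 74.62 and 80.0 CPM in control iGCBs. 2 of the 3 control libraries were above all cKO libraries and control replicate 1 was below them. The log2 fold change was −0.14 (95% confidence interval −0.32 to 0.03, adjusted p = 0.16, edgeR). Without control replicate 1 it was −0.22 with an adjusted p of 0.0328 (edgeR), which would make *Zc3h12a* a call.

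Of the remaining binding proteins, *Elavl1* and *Hnrnpdl* were higher in cKO iGCBs and *Khsrp* hardly moved. *Elavl1* (chromosome 8, 4285382 to 4325413, minus strand) encodes HuR. It was at 150.8, 158.0 and 163.7 CPM in cKO and at 90.67, 113.9 and 108.9 CPM in control iGCBs. The groups were far apart relative to their spread, with a log2 fold change of 0.59 (SE 0.0814, adjusted p = 0.000202, edgeR), or 1.51-fold. It lies so close to 1.5-fold that it fell below that cutoff, at 0.56, without cKO replicate 3 and, at 0.50, without control replicate 1, as *Zfp36l2* also did at −0.58 and −0.56. A test of whether the change itself exceeded 1.5-fold called 0 of the 10 members. Of the *Elavl1* transcript, 204 bases overlap *Ccl25* on the opposite strand. *Ccl25* was counted 92 to 148 times per cKO library and 22 to 73 times per control library. *Elavl1* was counted 6843 to 7110 and 4092 to 4483 times.

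*Hnrnpdl* (chromosome 5, 100033577 to 100039664, minus strand), a relative of the AU-rich element binding protein AUF1, was at 296.9, 320.1 and 303.4 CPM in cKO and at 231.9, 212.3 and 228.8 CPM in control iGCBs. The groups did not overlap, and the log2 fold change was 0.45 (SE 0.0539, adjusted p = 8.1e-05, edgeR). *Khsrp* (chromosome 17, 57021051 to 57031522, minus strand), whose KH domain protein promotes decay of AU-rich mRNAs, was at 388.5, 388.9 and 390.9 CPM in cKO and at 400.0, 383.9 and 393.2 CPM in control iGCBs. The cKO libraries lay inside the control range. Its log2 fold change of −0.01 had a 95% confidence interval of −0.11 to 0.09 (adjusted p = 0.863, edgeR), the narrowest interval among the members that were not called.

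*Cnot1* (chromosome 8, 95719451 to 95807464, minus strand) encodes the scaffold of the CCR4-NOT deadenylase, to which ZFP36 family and Roquin proteins bind. It was at 663.9, 663.9 and 638.1 CPM in cKO and at 474.7, 485.4 and 489.4 CPM in control iGCBs. The spread within each group was small, and the log2 fold change was 0.44 (SE 0.044, adjusted p = 2.73e-05, edgeR), with values from 0.43 to 0.46 in the alternatives. An antisense RNA, *4930513N10Rik*, shares 132 exonic bases with the *Cnot1* transcript. It was counted 373 to 400 times per cKO library and 142 to 231 times per control library. *Cnot1* was counted 27068 to 30127 and 19080 to 21425 times.

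**Figure D4:**
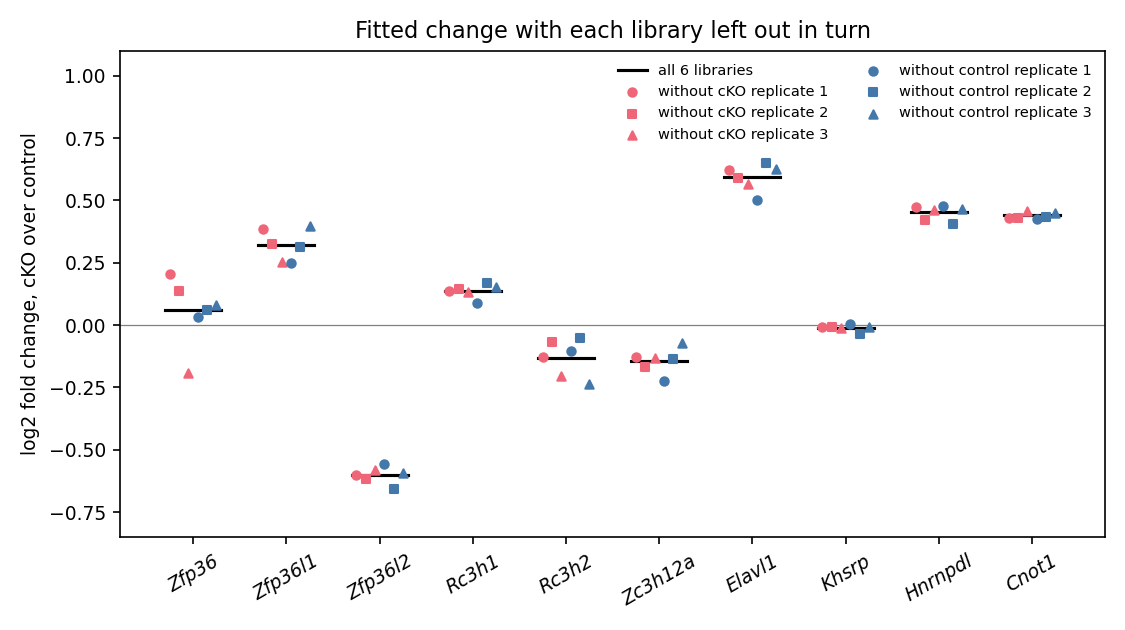
Log2 fold change of each regulator fitted with each of the 6 libraries left out in turn (points) and with all libraries (black lines). The points of *Cnot1*, *Hnrnpdl*, *Elavl1*, *Zfp36l1* and *Zfp36l2* stay on one side of 0, and *Zfp36* crosses it at −0.19 without cKO replicate 3.

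With *Xist* at a high level in some libraries of both groups, differences were also taken within libraries of each kind, where a group holds 1 or 2 libraries, and are given as values without a test. In a fit of all 6 libraries with the level of *Xist* as a covariate, the same 5 members were called. The direction was the same in both kinds for 8 members. *Zfp36l1* was higher in cKO by 0.39 on the log2 scale among libraries with *Xist* and by 0.18 among those without. *Zfp36l2* was at −0.55 and −0.63, *Elavl1* at 0.64 and 0.53, *Hnrnpdl* at 0.53 and 0.39 and *Cnot1* at 0.47 and 0.41. *Zfp36* was at −0.09 and 0.05 and *Rc3h2* at −0.38 and 0.17, and neither was called.

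Levels were compared between genes as CPM per kilobase of the matched transcript. In control iGCBs the order from high to low was *Zfp36l1* (212 ± 22.0), *Zfp36* (125 ± 4.19), *Khsrp* (98.6 ± 2.03), *Hnrnpdl* (81.5 ± 3.83), *Zfp36l2* (65.4 ± 4.29), *Cnot1* (57.8 ± 0.909), *Zc3h12a* (26.5 ± 2.81), *Elavl1* (18.2 ± 2.13), *Rc3h2* (10.6 ± 1.47) and *Rc3h1* (8.17 ± 0.506 CPM per kilobase, SD, n = 3 each). The ranges of neighbours in this order did not overlap, although *Zfp36l2* (lowest 60.8) and *Cnot1* (highest 58.5) came close. In cKO iGCBs 3 pairs of neighbours changed places. *Hnrnpdl* (112 ± 4.35) stood above *Khsrp* (97.9 ± 0.323), *Cnot1* (78.4 ± 1.78) above *Zfp36l2* (43.1 ± 1.15) and *Elavl1* (27.4 ± 1.13) above *Zc3h12a* (24.0 ± 0.75 CPM per kilobase, SD, n = 3 each). *Zfp36l1* remained the highest at 264 ± 24.0 CPM per kilobase. In cKO iGCBs the ranges of *Zfp36* and *Hnrnpdl*, and those of *Rc3h1* and *Rc3h2*, overlapped.

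The transcript table held 1 RefSeq transcript for 8 of the members, 2 for *Rc3h2* and 3 for *Cnot1*. Of all transcripts tested, 25.1% were called, and none of the 5 of *Rc3h2* and *Cnot1*, although *Cnot1* was called as a gene. Use of transcripts within a gene was called for 1.37% of the 2990 genes tested, and the adjusted p was 1 for both *Rc3h2* and *Cnot1* (edgeR's diffSpliceDGE). On simulated data these tests recovered only some of the known shifts, so they say little about small ones. The transcript NM_001205226 of *Cnot1* took 21.7%, 12.1% and 41.0% of the gene's counts in cKO and 43.7%, 10.2% and 0% in control libraries. A share that moves this much between libraries of 1 group does not show a stable split of reads, and NM_001205226 and NM_178078 match the same GENCODE transcript. NM_001100591 of *Rc3h2* made up 81.3 ± 12.8% of its gene's counts in cKO libraries and 74.0 ± 12.5% in control libraries (SD, n = 3 each; exact permutation p = 0.6). *Zfp36l1*, with the same counts in both tables, had an adjusted p of 0.0653 in the transcript fit (edgeR), where the spread is estimated over transcripts.

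The other genes of the pathway were taken as 6 lists. Among 27 tested genes of other 3' UTR binding proteins, 12 (44.4%) were higher and 4 (14.8%) lower in cKO iGCBs, against 24.1% and 24.5% of all genes tested, with a median log2 fold change of 0.16. Among called genes of this list with at least 10 mean CPM, the largest rises were those of *Hnrnpd*, which encodes AUF1, from 372 ± 9.34 to 619 ± 19.9 CPM (SD, n = 3 each; log2 fold change 0.73, adjusted p = 2.59e-06, edgeR) and *Hnrnpab* (0.67). *Celf2* and *Igf2bp3* fell by 0.67 and 0.51 on the log2 scale.

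Of the 21 genes of the deadenylation list, 5 (23.8%) were higher and 4 (19.0%) lower, near the 24.1% and 24.5% of all genes tested, with a median of −0.02. Without cKO replicate 1 or 2 the count of higher genes was 3, and without control replicate 1 or 3 that of lower genes was 2. *Pabpc4*, a poly(A) binding protein, rose by 0.64 and *Cnot9*, a CCR4-NOT subunit, by 0.58 on the log2 scale. *Btg2*, which recruits the deadenylase, fell by 0.57 and *Pan2*, the nuclease of the PAN2-PAN3 deadenylase, fell by 0.54. Of the other CCR4-NOT subunits, *Cnot3*, *Cnot4* and *Cnot2* rose by 0.43, 0.28 and 0.14 and *Cnot10* and *Cnot11* were at 0.01 and 0.03 and not called. Of the 4 nucleases *Cnot6* fell by 0.16 while *Cnot7*, *Cnot8* and *Cnot6l* were at −0.16, −0.15 and −0.02 and not called. These 9 were named after their values were seen.

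In the decapping and 5' to 3' decay list, 5 of 19 genes (26.3%) were higher and 4 (21.1%) lower, near the 24.1% and 24.5% of all genes tested (median 0.07), with *Lsm7* at 0.81 and the decapping enzyme *Dcp2* at 0.45 at the upper end and *Patl1* at −0.36 and *Lsm4* at −0.34 at the lower end. In the exosome list 8 of 16 (50%) were higher and 3 (18.8%) lower, against the same 24.1% and 24.5% (median 0.24). *Dis3*, the exosome's catalytic subunit, rose from 57.0 ± 3.66 to 106 ± 5.71 CPM (SD, n = 3 each; log2 fold change 0.90, adjusted p = 4.29e-06, edgeR) and *Exosc2* by 0.61, while *Exosc10*, a nuclear exosome nuclease, fell by 0.31 and *Exosc3* fell by 0.27.

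Of 13 kinases, proteases and partners that act on the members, 4 (30.8%) were higher and 6 (46.2%) lower, against 24.1% and 24.5% of all genes tested, with a median log2 fold change of −0.13. Without cKO replicate 2, 2 were higher. *Mapk14*, which encodes p38α of the pathway that inactivates tristetraprolin by phosphorylation, rose by 0.35, and *Ppp2ca*, a phosphatase subunit that opposes it, by 0.32. *Map2k6* and *Map2k3*, the kinases that activate p38, fell by 0.81 and 0.50 on the log2 scale. *Malt1*, the protease that cuts Regnase-1 and Roquin, was at −0.13 and not called (adjusted p = 0.211, edgeR), whereas its partner *Bcl10* fell by 0.38. Both were named after their values were seen.

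Transcripts described as targets of these proteins did not share a direction. The list pools targets of ZFP36 proteins, Roquin and Regnase-1 with those of HuR, which mostly stabilizes mRNA. A shared direction was therefore not to be predicted, and its absence says nothing about any single regulator. Of 35 tested of 41 in the list, 13 (37.1%) were higher and 10 (28.6%) lower, against 24.1% and 24.5% of all genes tested, with a median log2 fold change of 0.03. With the 1.5-fold cutoff as well, 9 of 35 were higher and 6 of 35 lower, against 10.4% and 10.6% of all genes. *Fos* rose from 97.5 ± 16.3 to 393 ± 108.5 CPM (SD, n = 3 each; log2 fold change 2.01, adjusted p = 1.26e-05, edgeR) and *Socs3*, an inhibitor of cytokine signalling, by 1.98. *Notch1* fell by 1.01 and *Klf2*, a transcription factor of quiescent lymphocytes, by 0.85 on the log2 scale. The libraries measure mRNA level, and neither decay rates nor binding. In bulk RNA, fewer cells of a kind and less RNA per cell cannot be told apart.

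**Figure D5:**
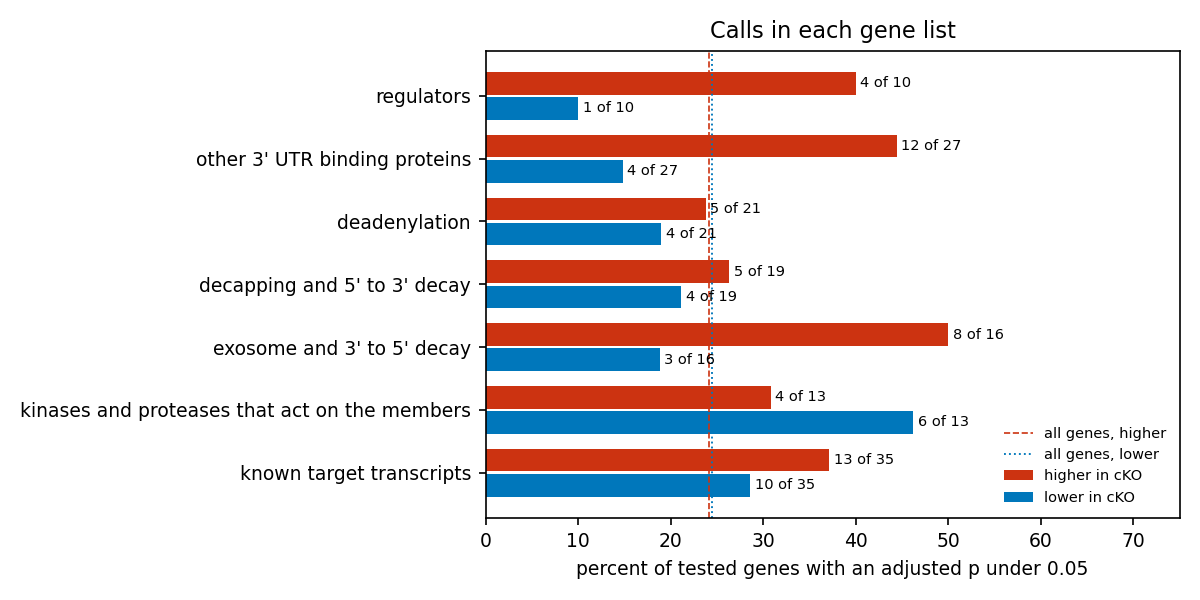
Percent of the tested genes in each list with an adjusted p under 0.05, higher or lower in cKO than in control iGCBs, with counts beside the bars and the share of all genes as vertical lines at 24.1% and 24.5%. The exosome list reaches 8 of 16 higher, and the list of kinases and proteases 6 of 13 lower.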

How the data were processed

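RNA-seq of sorted day 3 YFP+ iGCBs from 3 cKO and 3 control mice was analysed, grouped by the labels. Trimmed reads were aligned by the authors with HISAT2 and assembled into expression estimates with StringTie, whose prepDE script gave estimated counts of genes and of RefSeq transcripts. The labels name mm10, and no tool versions or strand setting are given in the sources used here. The deposited estimated counts were whole and not normalized. Totals were 39079582 to 45504570 per library, and floors cover counting error only, whereas the intervals of fold changes come from the edgeR fit and include the spread between mice.

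Counts were fitted on the whole table in R 4.3.3 with edgeR 4.0.16 (filterByExpr, minimum count 10, TMM, glmQLFit and glmQLFTest without covariates, Benjamini-Hochberg). Standard errors are those implied by the test. CPM are scaled by TMM. Transcript use was tested with diffSpliceDGE, family ratios (counts plus 0.5) with exact permutation tests. Alternatives were DESeq2 1.42.0 and its size factors, total counts, other count filters, counts divided by 2, immunoglobulin genes left out, a replicate block, *Xist* as a covariate, each library left out and a test against 1.5-fold. *Hnrnpdl* left out was added after seeing the data.

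The members and lists were chosen with earlier results of these data known. Named were all members, *Eif3e*, and from each list the 2 largest increases and 2 largest decreases called with at least 10 mean CPM. The scripts were tested on simulated data. The limits they had to meet, and the simulated spread and fold changes, were made easier after the first runs failed, for the edgeR, DESeq2 and transcript steps alike. The transcript steps still missed many of the changes put into the simulated data, and DESeq2 made more false calls than edgeR.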

Additional observations from a re-analysis of the deposited data

How the results depend on the processing

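The 5 calls among the members kept their direction and an adjusted p under 0.05 in all 15 alternatives run for each, with log2 fold changes from 0.25 to 0.40 for *Zfp36l1*, −0.66 to −0.56 for *Zfp36l2*, 0.50 to 0.65 for *Elavl1*, 0.41 to 0.48 for *Hnrnpdl* and 0.43 to 0.46 for *Cnot1*. *Eif3e* stayed between −1.43 and −1.32. Leaving out 1 library at a time gave *Zfp36* values of −0.192 (without cKO replicate 3) to 0.205 and *Khsrp* values of −0.0346 to 0.00322 (without control replicate 1), and *Zc3h12a* became a call at −0.224 without control replicate 1. With each library left out in turn, 1 to 2 members were lower (*Zfp36* and *Zc3h12a* each being added as above) and 0 to 2 passed both cutoffs, the latter being 0 without cKO replicate 3 and without control replicate 1. *Xist* as a covariate left 1 (*Zfp36l2*), and the test against 1.5-fold left 0. Leaving out *Hnrnpdl*, chosen after seeing the data, left 3 members higher. With each library left out, the deadenylation list had 3 (without cKO replicate 1 or 2) to 4 genes higher and 2 (without control replicate 1 or 3) to 5 lower, and the list of kinases and proteases 2 (without cKO replicate 2) to 3 higher. 2 transcripts that were never called changed sign, NM_001100591 of *Rc3h2* (−0.107 to 0.16) and NM_153164 of *Cnot1* (−0.23 to 0.366). The cause of these changes was not tested.

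The labels do not say that same-numbered mice were paired, and deviations of same-numbered libraries correlated at 0.00851, 0.0839 and 0.133. For growth, death and surface protein levels of control and cKO iGCBs the paper used paired t tests. Whether the cultures for RNA-seq were paired is not given. With the number as a replicate block, 4 members were higher, 1 was lower and 2 passed both cutoffs, as without it, with *Zfp36l1* at 0.322, and over all genes 3069 were higher and 3165 lower, against 3204 and 3264 without it. NM_153164 of *Cnot1* turned to −0.0547 under the block. The smallest exact permutation p for 3 mice against 3 is 0.1.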

Other observations

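The heptamer TATTTAT, bound by the ZFP36 family as UAUUUAU, was also counted in the 3' UTRs of all tested genes with a matched transcript, a count made after the members' values had been seen. Among 408 genes with 3 or more copies, 24.8% were higher and 25.5% lower in cKO iGCBs, with a median log2 fold change of 0.01. Among 8836 genes without a copy, 24.5% were higher and 25.8% lower, with a median of −0.01. Genes with more copies had longer 3' UTRs, with a median of 3126.5 bases against 696.5 bases. Among 3' UTRs of at least 1500 bases, 26.9% of 2105 genes with a copy were higher and 25.1% lower, and 26.7% of 2147 genes without one were higher and 26.1% lower. Genes are not independent replicates, and no test was made.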
